A study of Danio rerio with 11 samples.

Results

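The endoplasmic reticulum (ER) genes described here are a named list of 40 zebrafish genes that encode the chaperones, disulfide isomerases, ER-associated degradation (ERAD) components and unfolded protein response regulators of the secretory pathway. Membership was set by gene symbol, with no threshold on a measured value, although the list was drawn up with earlier results of these data known. Of the 40 listed genes, 39 had a row under their symbol in the irradiated tables. The remaining gene, calr3b, had no row under that symbol, and its Ensembl identifier occurred in the 18.5-mel table alone, with a mean of 1273 normalized counts there.

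RNA was sequenced from the gastrointestinal tract (GIT) of adult zebrafish of the AB strain. Torpor-like treated and irradiated fish (18.5-mel-rad, n = 4) lived at 18.5 °C, had 24 µM melatonin in the water and received 32.64 cGy according to the sample labels. Torpor-like treated fish (18.5-mel, n = 2) had the same temperature and melatonin without radiation, irradiated fish (28.5-rad, n = 3) received 32.64 cGy at 28.5 °C without melatonin, and control fish (28.5-Ctrl, n = 2) were kept at 28.5 °C without melatonin or radiation. Torpor-like treatment joined cold and melatonin in every labelled group that received either, so their effects cannot be told apart, and the study's methods describe the fish as anaesthetised for irradiation.

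Proteins that enter the ER are folded by chaperones of the Hsp70 and Hsp90 families, by the lectins calreticulin and calnexin and by disulfide isomerases, and those that fail to fold are drawn back into the cytosol and degraded by ERAD. When unfolded proteins accumulate, the sensors IRE1, PERK and ATF6 activate transcription factors that raise the synthesis of chaperones and ERAD components. Secretory tissues such as the exocrine pancreas and the gut epithelium are known for a high demand on this machinery. The roles given below are known mainly from mammalian and yeast cells.

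Each of 3 tables, named here after the group it was deposited for, gave 1 mean of normalized counts per gene. That mean was taken over all libraries of the authors' fit, controls included, so no value per sample and no mean per group was used, and no difference between the labelled groups was tested. The low values of the tables showed which libraries were averaged. A gene with 1 read in 1 library adds a fixed amount to each mean, and 14 such amounts recurred, each taken as 1 library. By this reading 13 libraries lay behind the 18.5-mel means, 11 behind the 18.5-mel-rad means and 12 behind those of 28.5-rad. The reciprocal of the geometric mean of the amounts was 13.1, 10.9 and 12.2 in the same order. It equals the number of libraries when size factors have a geometric mean of 1 and each amount stands for 1 library entered 1 time. The latter was not known for 1 amount of the 18.5-mel-rad table, described below. As the labels name 11 samples and the tables name no library, no library was assigned to a group.

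The 18.5-mel table and the 28.5-rad table shared 11 libraries, and 2 libraries occurred in the 18.5-mel table alone. A single read weighed 0.340 and 1.20 normalized counts in the mean for these 2 libraries, and 0.0294 to 0.0932 for the shared libraries, or 3.65 to 40.8 times as much. The 2 libraries thus held far fewer reads. The shared libraries held about 2.91 to 8.92 M counted reads in the genes of the 28.5-rad table, if each library's normalized counts sum to that table's total. That table held 19071 genes, against 32520 in the 18.5-mel table, so reads of other genes are left out. Another library stood apart in the 18.5-mel-rad table, where it weighed 2.1 times its weight in the 28.5-rad table, against 1.05 times for the other 10.

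**Figure D1:**
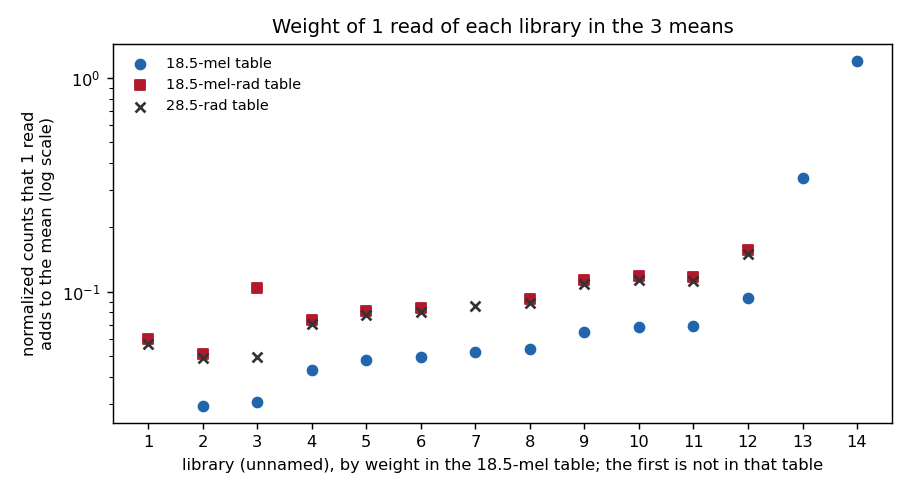
Weight of 1 read, in normalized counts added to the table mean (log scale), for each of 14 unnamed libraries in the 3 tables. The rightmost 2 libraries occur in the 18.5-mel table alone, at 0.340 and 1.20, above all weights of the other libraries.

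The ER genes were among the more abundant genes of the GIT in all 3 tables. The median percentile of the measured genes, among genes above 0 and without correction for gene length, was 90.7 in the 18.5-mel table, 89.2 in the 18.5-mel-rad table and 89.1 in the 28.5-rad table. As many as 27 genes lay above percentile 75 of the 28.5-rad table, and the levels ran from 6.81 to 4162 normalized counts, with 7 genes over 1000 and 6 under 25. The highest means were those of pdia3, canx, pdia2, xbp1, hspa5, calr3a and p4hb, and the lowest that of dnajb9a. The genes held 0.308% of the summed means in the 18.5-mel table, 0.440% in the 18.5-mel-rad table and 0.436% in the 28.5-rad table. The tables were normalized separately and the 18.5-mel table held more genes, one of which took 11.2% of its sum, so the shares are given side by side and not compared.

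**Figure D2:**
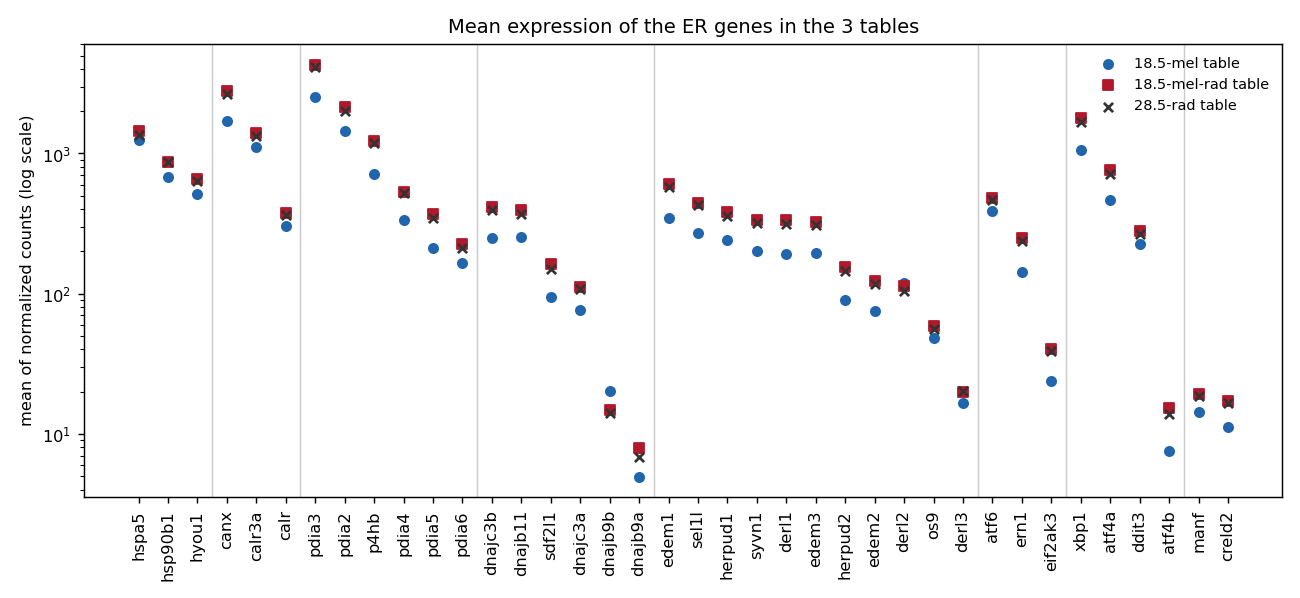
Mean of normalized counts (log scale) of the 38 ER genes above 0 in the 28.5-rad table, grouped by role and then by level, in the 3 tables. Means in the 18.5-mel-rad and 28.5-rad tables nearly coincide, and those of the 18.5-mel table are on another scale.

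Because the 11 libraries are in both means, the difference between the tables gave the mean level of the 2 libraries found in the 18.5-mel table alone, hereafter the 2 added libraries. For each gene this level was divided by the mean level of the shared libraries, on the scale of the 18.5-mel table. The range given with each ratio covers the unknown level of the 1 library that the 18.5-mel table lacked, set between 0 and 2 times the mean. It also covers the spread of the scale over the shared libraries. The divisor was kept the same at both ends, although the missing library is part of it. Calls with a range end near 2 or 0.5 depend on that choice, as for calr (2.01), calr3a (2.06), atf6 (2.07) and atf4b (0.474). The range is not a confidence interval. The counting standard error (SE) assumes the same level in both added libraries, covers counting error only and is not part of the range. Ranges that lay apart may therefore overlap once it is added. A gene was called higher when its whole range was at or above 2, and lower when it was at or below 0.5. With this range even a gene at a level of 0 in the 2 added libraries had an upper end above 0.5. A lower call was thus reached only by a negative level, before it was set to 0, and does not by itself show a decrease.

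Of 37 ER genes with a mean of at least 10, 8 were called higher in the 2 added libraries, which is 21.6% of them, against 12.0% of all 12163 genes. One was called lower, against 1.92% of all genes, and 28 were neither. As lower levels could not be called reliably, the 28 are not shown to be unchanged. Once the range was widened by 2 counting SE, 3 of the 37 genes were still called higher, namely hspa5, derl2 and dnajb9b. That share was close to the 6.48% of all genes, so the excess over all genes was largely lost. None was called lower, against 0.304% of all genes. The median ratio of the ER genes was 0.857, against 0.769 over all genes, whose quartiles were 0.403 and 1.47. The ratio of 21 ER genes lay above the all-gene median. The whole range lay above 1 for 14 ER genes, against 22.6% of all genes, and below 1 for 1 ER gene, against 22.9%. These are counts over genes of 2 unnamed libraries. They describe those libraries and were not tested.

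**Figure D3:**
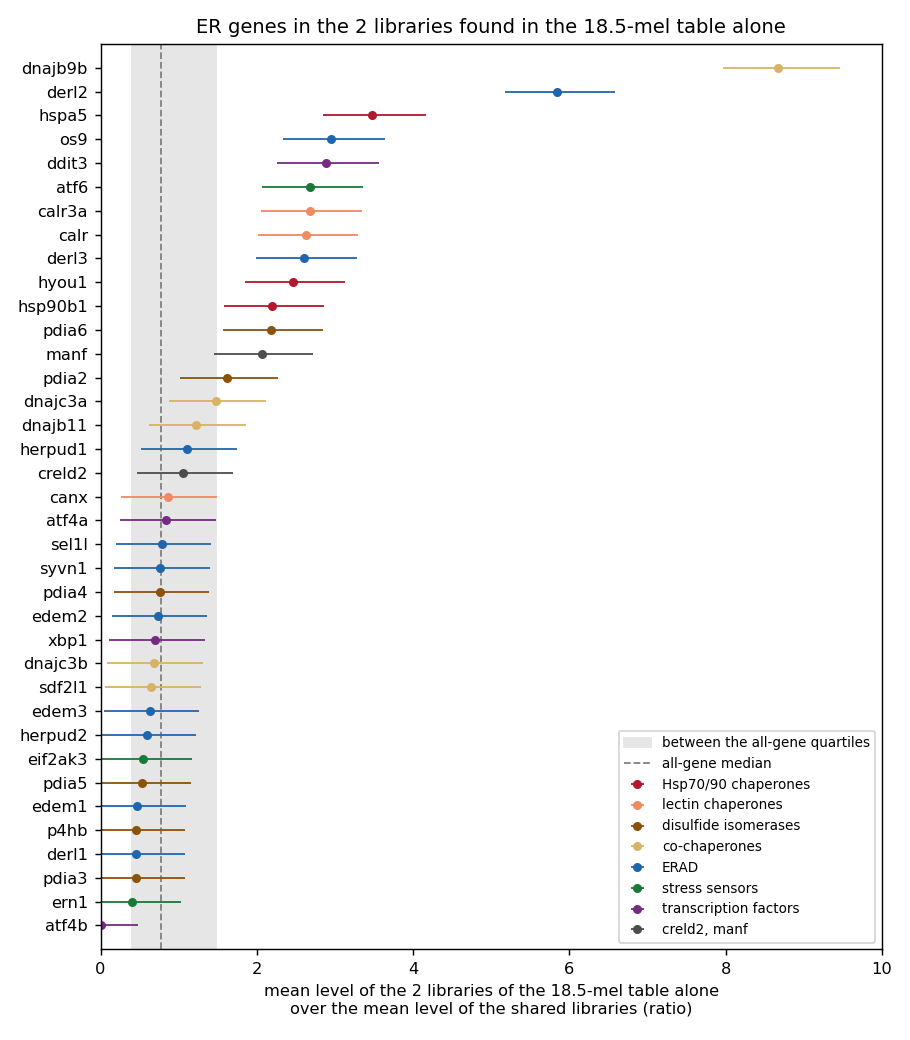
Ratio of the mean level in the 2 libraries of the 18.5-mel table alone to that in the shared libraries for 37 ER genes, coloured by role, with its range as a line (no counting error). The dashed line is the all-gene median of 0.769 and the band runs between the all-gene quartiles. dnajb9b at 8.67 and derl2 at 5.84 stand to the right of the rest, and atf4b, a negative estimate set to 0, is at 0.

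The 3 chaperones of the Hsp70 and Hsp90 families all had ratios above 2. hspa5 encodes BiP, the main Hsp70 of the ER lumen and the partner that holds the stress sensors inactive. Its mean was 1246 normalized counts in the 18.5-mel table, 1450.1 in the 18.5-mel-rad table and 1361 in the 28.5-rad table. This gene averaged 3135 normalized counts in the 2 added libraries and 902 in the shared libraries. The ratio of 3.48 (range 2.85 to 4.17, counting SE 0.139) lay at percentile 91.6 of all genes. The span of hspa5 overlaps rabepk and si:ch73-55i23.1, and reads of overlapping genes may not be told apart. hyou1, a large Hsp70 relative that exchanges the nucleotide of BiP, averaged 1038 and 422 normalized counts, with a ratio of 2.46 (range 1.85 to 3.13, counting SE 0.171). hsp90b1, the ER Hsp90, averaged 1256 and 572, with a ratio of 2.20 (range 1.59 to 2.86, counting SE 0.139), and overlaps glt8d2. The range of each of these last genes began below 2, so neither was called.

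Among the lectin chaperones, which bind glycoproteins through their trimmed sugars, the calreticulin genes calr and calr3a were called higher and calnexin was not. The other listed calreticulin gene, calr3b, had no ratio. calr3a averaged 2377 normalized counts in the 2 added libraries and 888 in the shared libraries, a ratio of 2.68 (range 2.06 to 3.35, counting SE 0.123). calr averaged 638 and 243, a ratio of 2.63 (range 2.01 to 3.30, counting SE 0.232). Both calls were lost when the range was widened by 2 counting SE. canx, the membrane-bound lectin, averaged 1500.4 and 1751, a ratio of 0.86 (range 0.26 to 1.49, counting SE 0.049). The ranges of calr and calr3a lay above that of canx without the counting error. Less 2 counting SE, the low ends were 1.54 for calr and 1.81 for calr3a. With 2 counting SE added to the upper end of canx as well, calr3a stayed above canx but calr overlapped it. calr overlaps the span of 2 other gene models, LOC101883687 and LOC141375604.

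The 6 disulfide isomerases, which form and rearrange disulfide bonds, had ratios between 0.448 and 2.18, and none was called. pdia6 stood highest, with 304 normalized counts in the 2 added libraries and 139 in the shared libraries, a ratio of 2.18 (range 1.57 to 2.85, counting SE 0.280). pdia2, a pancreatic isomerase in mammals, averaged 2143 and 1324, a ratio of 1.62 (range 1.01 to 2.27, counting SE 0.078). The most abundant ER gene, pdia3, which works with calreticulin and calnexin on glycoproteins, averaged 1236 and 2758, a ratio of 0.448 (range 0 to 1.07, counting SE 0.028). p4hb, the founding member of the family, averaged 359.5 and 785, a ratio of 0.458 (range 0 to 1.08, counting SE 0.054). The ranges of pdia3 and p4hb lay below that of pdia6 without the counting error. Less 2 counting SE, the low end of pdia6 was 1.01, under the upper ends of both. pdia4 had a ratio of 0.761 and pdia5 one of 0.524. In these 2 libraries the isomerases therefore lay on both sides of the all-gene median, with pdia6 and pdia2 alone above it.

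The co-chaperones, which carry J domains or assemble with proteins that do, held the highest ratio of the ER genes. dnajb9b, a J-domain partner of BiP also called ERdj4 in mammals, had a mean of 20.2 normalized counts in the 18.5-mel table, 14.7 in the 18.5-mel-rad table and 14.0 in the 28.5-rad table. Its level was 80.5 in the 2 added libraries and 9.29 in the shared libraries, so that 61.2% of the 18.5-mel mean came from the 2 added libraries. The ratio was 8.67 (range 7.96 to 9.47, counting SE 2.16), at percentile 96.6 of all genes. Behind the level of the 2 added libraries stood 10.3 to 36.4 reads, depending on which of the 2 held them. dnajb9b overlaps apaf1, the gene of the apoptosome scaffold.

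Its paralog dnajb9a, at 6.81 normalized counts in the 28.5-rad table, lay under the minimum of 10 and was not among the 37 genes. At the shared level dnajb9a would have given 1.31 reads in the 2 added libraries, so a lower level was not detectable at this depth. A higher level of dnajb9a was not assessed under that minimum. dnajc3a, an inhibitor of PERK and a partner of BiP, had a ratio of 1.47 (range 0.87 to 2.12) and its paralog dnajc3b one of 0.678 (range 0.09 to 1.31). dnajb11 (ERdj3) had a ratio of 1.22, and sdf2l1, a subunit of its complex, one of 0.651. The ranges of these 4 genes overlapped.

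ERAD genes spread over most of the range. The ratios of the 3 derlins, membrane proteins of the retrotranslocation channel, ran from 0.449 to 5.84. derl2 had means of 120 normalized counts in the 18.5-mel table, 113 in the 18.5-mel-rad table and 104 in the 28.5-rad table. It averaged 402 normalized counts in the 2 added libraries and 68.8 in the shared libraries, a ratio of 5.84 (range 5.18 to 6.58, counting SE 0.651) at percentile 95.2. The 2 added libraries made up 51.5% of its 18.5-mel mean. derl3 averaged 34.9 and 13.4, a ratio of 2.61 (range 1.99 to 3.28, counting SE 0.986), from 4.48 to 15.8 reads. derl1 averaged 94.0 and 209, a ratio of 0.449 (range 0 to 1.07, counting SE 0.103), and overlaps zhx2a. Without the counting error the ranges of the 3 derlins did not overlap, although that of derl3 is narrow beside its counting error. Less 2 counting SE, the low end of derl3 was 0.0153, under the upper end of derl1. Less 2 counting SE, the low end of derl2 was 3.87. With 2 counting SE added to the upper ends of the others, derl2 stayed above derl1 but overlapped derl3.

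os9, a lectin that hands misfolded glycoproteins to the ubiquitin ligase, was the other ERAD gene called higher. It averaged 109 normalized counts in the 2 added libraries and 36.9 in the shared libraries, a ratio of 2.95 (range 2.33 to 3.63, counting SE 0.632). The call of os9 was lost with the counting error, and the gene overlaps LOC141386323. The ligase itself, syvn1 (HRD1 in yeast), had a ratio of 0.766 (range 0.17 to 1.40), and its membrane partner sel1l one of 0.784 (range 0.19 to 1.42), both near the all-gene median.

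The EDEM genes, whose products trim the mannose of glycoproteins bound for degradation, had ratios of 0.461 (edem1), 0.732 (edem2) and 0.636 (edem3). herpud1, which organises the ligase complex and is a target of the unfolded protein response in mammals, had a ratio of 1.11 (range 0.51 to 1.75), and herpud2 one of 0.593 (range 0.005 to 1.22). None of these 5 genes was called, and their ranges overlapped. Without the counting error, the ranges of derl2 and os9, the ERAD genes called higher, lay above those of all ligase and EDEM genes named here. Less 2 counting SE, the low end was 3.87 for derl2 and 1.07 for os9. The latter lies under the upper ends of syvn1 (1.40) and sel1l (1.42). It also lies under those of edem1 (1.09), edem2 (1.36) and edem3 (1.27), so os9 was not set apart from any of these genes.

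ubxn4, an ER membrane protein that recruits the p97 ATPase to ERAD, was the only ER gene at 0 in the irradiated tables. Its mean in the 18.5-mel table was 13.1 normalized counts. That value split into whole reads of the 2 added libraries in 1 way, as 21 reads in one and 5 in the other, which is a mean of 85.3 normalized counts over the 2 libraries. In the other libraries ubxn4 was listed at 0, so no fold is given. It was 1 of 111 genes with reads in the 2 added libraries alone, and all 107 of these with a mean under 20 split into whole reads. Whether such a 0 in the other libraries reflects expression or the way reads were counted was not tested.

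Of the 3 stress sensors, atf6 had the highest ratio, and the ranges of the other 2 overlapped. atf6, the sensor that is cut in the Golgi to release a transcription factor, averaged 834 normalized counts in the 2 added libraries and 311 in the shared libraries, a ratio of 2.69 (range 2.07 to 3.36, counting SE 0.208). ern1, which encodes IRE1, the kinase and nuclease that splices xbp1 mRNA, averaged 62.6 and 156, a ratio of 0.400 (range 0 to 1.03, counting SE 0.113). eif2ak3, which encodes PERK, the kinase that slows translation, averaged 14.1 and 25.7, a ratio of 0.547 (range 0 to 1.18, counting SE 0.326). The range of atf6 lay above those of both other sensors without the counting error. Less 2 counting SE, the low end of atf6 was 1.65. With 2 counting SE added to the upper ends of the others as well, atf6 stayed above ern1 but overlapped eif2ak3. The atf6 gene was called higher without the counting error and not with it.

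Among the transcription factors downstream of the sensors, ddit3, the stress factor CHOP, was called higher. It averaged 507 normalized counts in the 2 added libraries and 176 in the shared libraries, a ratio of 2.88 (range 2.26 to 3.56, counting SE 0.286), and lost the call with the counting error. xbp1 averaged 780.2 and 1111, a ratio of 0.702 (range 0.11 to 1.33, counting SE 0.056). The tables count all xbp1 reads together and hold nothing on its splicing. atf4a, the ATF4 factor translated under PERK signalling, averaged 401 and 476, a ratio of 0.842 (range 0.25 to 1.48, counting SE 0.094). Its paralog atf4b was the 1 gene called lower, with 9.15 normalized counts in the shared libraries. Its estimate for the 2 added libraries was negative (ratio -0.139) and was set to 0. At the shared level, atf4b would have given only 2.66 reads in the 2 added libraries, so a lower level was not detectable at this depth.

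Of the secreted proteins induced by ER stress in mammals, manf had a ratio of 2.06 (range 1.45 to 2.72, counting SE 0.917) and creld2 one of 1.06 (range 0.461 to 1.7, counting SE 0.692). Both genes had fewer than 25 normalized counts in each table, and neither was called.

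**Figure D4:**
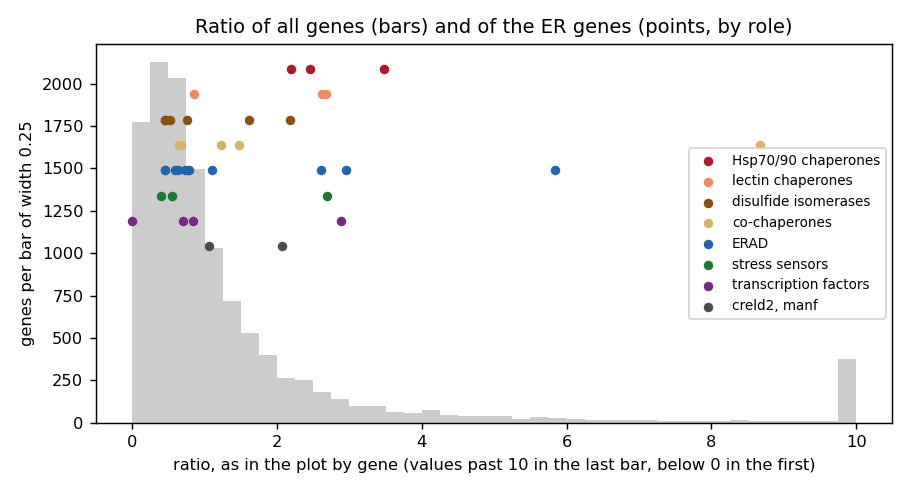
Distribution of the same ratio over 12163 genes (grey bars, genes per bar) with the 37 ER genes as points in rows by role, whose height has no scale. Most ER genes lie in the body of the distribution, with the 3 Hsp70 and Hsp90 chaperones above 2 and dnajb9b and derl2 in its right tail.

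Other genes of ER folding and degradation gave a lower middle value. Of 43 such genes in a second list, 36 had a ratio, with a median of 0.633 against the all-gene median of 0.769, and 12 lay above that all-gene value. One of the 36, faf2, which recruits p97 to ER membranes, was called higher, with a ratio of 2.94 (range 2.31 to 3.61), and 0 were called lower. That is 2.78% called higher, against 12.0% of all genes, and none called lower, against 1.92%. The p97 gene vcp had a ratio of 1.39 and its cofactor ufd1l one of 1.53. The oxidase genes ero1a and ero1b had ratios of 0.630 and 0.771.

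Levels of marker genes also differed in the 2 added libraries. In bulk tissue, fewer cells of a type and less RNA per cell cannot be told apart. All 8 enterocyte markers had a ratio, with a median of 0.418 and none called, and their summed level, 124625 normalized counts in the 18.5-mel table, 219269 in the 18.5-mel-rad table and 213355 in the 28.5-rad table, had a ratio of 0.229. Most of that sum came from apobb.1 (78325, 139764 and 137271 in the same order), with a ratio of 0.096. By gene the ratios ran from 0.036 to 1.57, and 2 of the 8, fabp2 (1.57) and cdx1b (0.810), lay above the all-gene median. For the exocrine pancreas 14 of 15 markers had a ratio, from 0.524 to 1.58 with a median of 1.04, and the summed level a ratio of 0.948. The 8 liver markers had a median of 0.630 with 1 called higher, and the 5 smooth muscle markers one of 0.701. The goblet cell list had a single ratio, 0.802 for agr2. Its mucin genes lay under the minimum, with muc5.1 at 8.79 normalized counts in the 18.5-mel table, 2.39 in the 18.5-mel-rad table and 2.17 in the 28.5-rad table, and muc5.2 at 5.80, 4.57 and 4.30 in the same order. Both mucin means were highest in the 18.5-mel table, although the scale to it from the 28.5-rad table was 0.663. Unlike agr2, both mucins thus stood higher in the 2 added libraries, but at low counts and with no ratio given. The B and plasma cell list also had a single ratio, 0.838 for irf4a, and 3 other members lay under the minimum. The ovary markers zp3b and zar1, an egg coat gene and an oocyte factor, had ratios of 13.7 and 8.51, while 3 others lay under the minimum and 1 had no row. Those under the minimum were bmp15 (3.44, 5.26 and 4.71 normalized counts in the same order of tables), ddx4 (1.38, 2.33 and 2.22) and gdf9 (0.043, 0.193 and 0.185). A single read of the 2 added libraries adds 0.340 or 1.20 to the 18.5-mel mean. At these low means it cannot be told whether the 3 genes shared the excess. The ovary list summed to 72.5, 48.5 and 46.0 normalized counts in the same order. No marker list with a row was at 0 in full, and the defining digestive markers were abundant in every table. The part of these markers, or of read depth, sequencing facility or instrument, in the ratios of the ER genes was not tested.

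Between the irradiated tables the ER genes were nearly proportional. These tables differ in that the 28.5-rad table holds 1 library the other lacks and the 18.5-mel-rad table weighs 1 library at 2.1 times, against 1.05 times for the rest. The difference between the 2 libraries concerned, as a fraction of the gene's mean, ran from −0.737 (derl3) to 1.30 (dnajb9a) over 38 ER genes. Over all genes with a ratio, which leave out dnajb9a, its central 95% ran from −1.21 to 0.731. Since the means share nearly all their libraries, the mean columns of the irradiated tables give no effect of radiation on these genes.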

How the data were processed

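GIT libraries were prepared and sequenced by the authors, who trimmed reads with Cutadapt after FastQC, aligned them with STAR to GRCz11 and counted them with HTSeq. The methods speak of reads per transcript, while the rows of the tables carry Ensembl gene identifiers. Tool versions, the strand setting and the libraries of each fit were not given in the sources used here. The authors deposited 3 DESeq2 result tables whose signal column is the mean of normalized counts (counts divided by a size factor per library) over all libraries of a fit. The remaining columns hold the authors' log2 fold changes, standard errors, test statistics and p-values, and were not used. No columns of per-sample values were present to map.

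As the authors' comparisons were left out and the means have no value per sample, the values are described without tests. Read weights were taken from means that recurred in at least 10 genes and were no sum of smaller ones. The 2 added libraries' level was (13 × the 18.5-mel mean − 11 × the scaled 28.5-rad mean) / 2, with a scale of 0.663 (0.649 to 0.673 over the shared libraries), for genes with a 28.5-rad mean of at least 10. Negative levels were set to 0. For identifiers listed more than once the row with the highest mean was kept. Overlapping genes were looked up by symbol in RefSeq, where 39 of 39 matched. Tested on simulated data with 22071 genes, of which those with a mean over 50 were assessed, the rule called 98.1% of genes set 4-fold higher in the 2 libraries. It called 6.38% of those set 4-fold lower and 0.0402% of unchanged genes. With the range of scales used for the data, a lower call needed a negative level before it was set to 0. Lower levels could therefore not be called reliably. The simulation gave every library the same spread around a gene's mean and used a single scale. Its percentages are therefore not error rates of these data, and they do not cover genes with lower means. Python 3.11.15, numpy 2.4.6, pandas 2.3.3 and matplotlib 3.10.9 were used.

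All listed genes were accounted for. Values were planned for paralog families, sensors, transcription factors, genes at 0 and the extremes between tables. The genes and lists were chosen with earlier results of these data known, and the ratio, its calls and 5 alternatives to them were chosen after seeing the data. Where nothing states that samples came from separate fish, replicates may be technical.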

Additional observations from a re-analysis of the deposited data

How the results depend on the processing

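No paired analysis was possible because the tables give 1 mean per gene and no value per sample, which also kept leaving out replicates from being run. The order of the genes per coding length was not run, since no lengths were at hand. Among the alternatives chosen after seeing the data, 7 of 31 ER genes were called higher with a mean of at least 50 (7.70% of all genes), 12 of 37 relative to the all-gene median (15.5%), 12 with the missing library at the mean of the others (15.9%), 8 with it between 0 and 3 times the mean (12.0%) and 3 with the range widened by the counting error (6.48%). For lower calls the counts were 0 ER genes with a mean of at least 50 (1.095% of all genes), 0 relative to the all-gene median (1.05%), 1 with the missing library at the mean of the others (22.9%), 0 with it between 0 and 3 times the mean (0.312%) and 0 with the counting error (0.304%). Without the 100 most abundant other genes the ER genes held 0.600%, 0.767% and 0.761% of the summed means of the 18.5-mel, 18.5-mel-rad and 28.5-rad tables.

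The log2 ratio of the 18.5-mel mean to the 28.5-rad mean, centred on all genes, had a median of 0.05 over the ER genes. It was -0.57 with each table scaled to its sum, which counts genes that the 28.5-rad table does not hold, and -0.051 with a pseudocount of 1. Scaling to the sum lowered every gene by the same 0.62, so the signs that turned follow from the starting values and say nothing about single genes. The value became negative for 22 of the 24 genes above 0, namely hspa5 (-0.10), hsp90b1 (-0.32), calr (-0.24), calr3a (-0.23), canx (-0.60), pdia2 (-0.43), pdia6 (-0.32), dnajb9a (-0.44), dnajb11 (-0.52), dnajc3a (-0.46), hyou1 (-0.27), derl3 (-0.25), herpud1 (-0.54), os9 (-0.18), atf6 (-0.23), ddit3 (-0.20), creld2 (-0.55), manf (-0.34), pdia4 (-0.62), sel1l (-0.61), syvn1 (-0.62) and atf4a (-0.60). With the pseudocount, which lowered the genes by a median of 0.10, it became negative for 6, namely canx (-0.080), herpud1 (-0.022), pdia4 (-0.10), sel1l (-0.095), syvn1 (-0.099) and atf4a (-0.083). Percentiles moved by less than 1.5 times in 115 of 115 cases with all rows and in 91 of 111 with a mean of at least 10.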

Other observations

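chac1, a glutathione-degrading enzyme induced by ATF4 and CHOP in mammals and a gene of the second ER list, was at 0 in the irradiated tables like ubxn4, with a mean of 19.8 normalized counts in the 18.5-mel table. Both genes thus had reads in the 2 added libraries alone. In the liver list, fetub had a ratio of 3.17 (range 2.54 to 3.85), while apoa2 had one of 0.226 (range 0 to 0.847).

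The library that weighed 2.1 times its 28.5-rad weight in the 18.5-mel-rad table came to 1.05 times when that value was divided by 2, close to the 1.05 times of the other 10 libraries.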
